A study of Mus musculus with 6 samples.

Results

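The loci described are Myc and Myb, the genes of a pair of transcription factors, together with the distal sequences that act on them in blood cells. They were chosen by position on the mouse build mm9. Myc was taken as chr15:61800001-61835000 (the Myc gene region) with the Myc far downstream region at chr15:63400001-63650000, and Myb with its upstream side as chr10:20830001-21010000 (the Myb region). Reads were summed over 1 kb windows. The 3 regions held 461 windows with a CpG, of 2335885 on the autosomes, and 205 of them were tested, of 774732. A tested window held 3 or more CpGs and no fewer than 20 reads from each sample. The tested windows were 21 of 35 at Myc, 84 of 246 far downstream of it and 100 of 180 at Myb.

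Whole-genome bisulfite sequencing gave the methylation of single CpGs in LSK cells. These are mouse bone marrow cells without lineage markers but with Sca-1 and c-Kit on their surface, a fraction enriched for blood stem cells and early progenitors. The groups were 3 samples of wild-type cells (WT) and 3 samples of cells lacking Tet2 and Tet3 (DKO), all described as biological replicates. The labels do not say how the genes were deleted, how old the mice were, or whether a sample came from 1 animal, so p-values refer to these samples. In the window test the spread is moderated across all tested autosomal windows (prior degrees of freedom 23.7). It is therefore not the spread at a single window alone. No expression was measured, and the cell type could not be checked against its markers. Reads of a sample count each CpG they cover, and bisulfite reads 5-methylcytosine and 5-hydroxymethylcytosine alike.

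The mean depth per CpG was 3.46 to 3.56 reads in WT and 4.09 to 5.46 in DKO. The deleted genes were checked by depth. Stretches with almost no DKO reads lay on chromosome 3 (a median of 136 reads over the WT samples and 0 in each DKO sample) and on chromosome 6 (a median of 208 reads in WT, and 14, 0 and 0 in DKO), the chromosomes of Tet2 and Tet3. Mitochondrial DNA, which is unmethylated, read as 1.28% ± 0.0797 methylated in WT and 1.71% ± 0.170 in DKO (mean and SD, n = 3 each). Levels near these values cannot be told apart from incomplete conversion.

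Myc, a basic helix-loop-helix leucine zipper protein, pairs with Max to drive genes of cell growth and division. Its dose in blood stem cells and progenitors depends on a cluster of enhancers far downstream of the gene. Myb is a factor of progenitor renewal and of early lymphoid and erythroid cells, and its enhancers lie upstream of the gene, on the side of Hbs1l. Tet proteins oxidise 5-methylcytosine, and active enhancers are a place where they are known to act, whereas CpG-rich promoters of expressed genes are usually free of methylation.

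The Myb promoter is shown because its sequence ties the gene to the measured CpGs. These are the 250 bases before the Myb start as RefSeq gives them (GRCm38.p6, chr10:21160985-21161234, minus strand), with each CpG in capitals.
Myb promoter: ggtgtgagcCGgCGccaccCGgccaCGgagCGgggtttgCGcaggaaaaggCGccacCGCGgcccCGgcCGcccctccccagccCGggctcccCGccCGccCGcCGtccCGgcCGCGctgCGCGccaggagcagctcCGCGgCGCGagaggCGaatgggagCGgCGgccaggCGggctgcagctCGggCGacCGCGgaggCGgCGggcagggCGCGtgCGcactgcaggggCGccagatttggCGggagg

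The stretch holds 40 CpGs and is 81.2% G and C. Of 32851 RefSeq promoter sequences of this length, 98.7% held fewer CpGs, and the median was 6. The letters TTTGGCGG, the core of a site that E2F factors bind, were found once on either strand, at -12 from the start, and in 0.44% of promoters. The letters GGGCGG, a GC box bound by Sp1, matched 3 times, at -182, -158 and -154. The last 2 of these matches overlap each other, and none overlaps TTTGGCGG. A GC box was found in 32.7% of promoters. The letters CACGTG, the E-box that Myc and Max bind, were not found in the window and occur in 6.02% of promoters. The spacing of the 40 CpGs matched the CpGs of the deposited table at 1 place, chr10:20880741-20881040 (mm9), with all 40 found. This puts the Myb start at position 20880790. Distances at Myb are given from there, and negative distances are upstream.

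Every CpG read in the Myb promoter sequence was unmethylated in both groups. Over the placed sequence, which reaches 50 bases past the start, the WT samples had 0 methylated of 94, 132 and 139 reads and the DKO samples 0 of 189, 216 and 190. These counts of 0 allow levels of up to 3.19%, 2.27% and 2.16% in WT and 1.59%, 1.39% and 1.58% in DKO, counting error only. Those limits take each count as independent. A read counts at each CpG it covers, so the actual limits are wider. The pair of 1 kb windows that hold the promoter had 1.20%, 2.42% and 1.95% in WT and 1.05%, 4.54% and 2.27% in DKO, with overlapping groups. The difference was 0.761 ± 1.08 points (SE; two-sided exact permutation p = 0.7, n = 3 each). It was -0.198 without DKO replicate 2. The run of windows below 10% around the start spanned 5 windows, chr10:20877001-20882000, with 233 CpGs. It stayed at 1.37% ± 1.19 in WT and 1.49% ± 1.06 in DKO (mean and SD, n = 3).

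At Myc the promoter was represented by the CpG-densest window among those below 10%, chr15:61818001-61819000, with 74 CpGs and 202 to 485 reads. Its level was 0%, 0% and 0.353% in WT and 0%, 0.206% and 0% in DKO. The difference of -0.0491 ± 0.136 points (SE; exact permutation p = 1, n = 3 each) turned to 0.0687 without WT replicate 3. The unmethylated run around it covered 5 windows, chr15:61815001-61820000, with 273 CpGs. That run had 0.389%, 2.47% and 0.323% in WT and 0.733%, 1.19% and 0% in DKO, again with overlapping groups. The Myc window and both runs were chosen for a level below 10%, so their low level is a description. The Myb sequence was placed without use of the levels.

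In 2 windows at the downstream edge of the Myc run DKO read higher, although no window there passed the test. Both were picked because their groups did not overlap. In chr15:61821001-61822000, 3 kb downstream of the densest window and holding 25 CpGs, the WT samples had 86.0%, 68.3% and 82.3% and the DKO samples 91.2%, 95.4% and 91.7%. In chr15:61823001-61824000, 5 kb downstream, they had 61.5%, 75.8% and 80% against 93.8%, 86.7% and 96.2%. The DKO samples exceeded each WT sample in both windows, and the group means differed by 13.9 and 19.8 points (adjusted p = 0.156 and 0.253, quasi-binomial test moderated as in limma, with Benjamini-Hochberg adjustment over all tested windows). When each CpG read in every sample got an equal weight, a choice made once the values were known, the groups overlapped in the second of them. Over chr15:61820001-61824000, a span chosen after its values were seen, the level was 74.5% ± 8 in WT and 89.2% ± 4.06 in DKO (mean and SD, n = 3). The upstream edge did not show this order. Its window chr15:61814001-61815000 had 38.9%, 58.7% and 42.9% in WT and 37.6%, 38.8% and 41.7% in DKO.

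**Figure D1:**
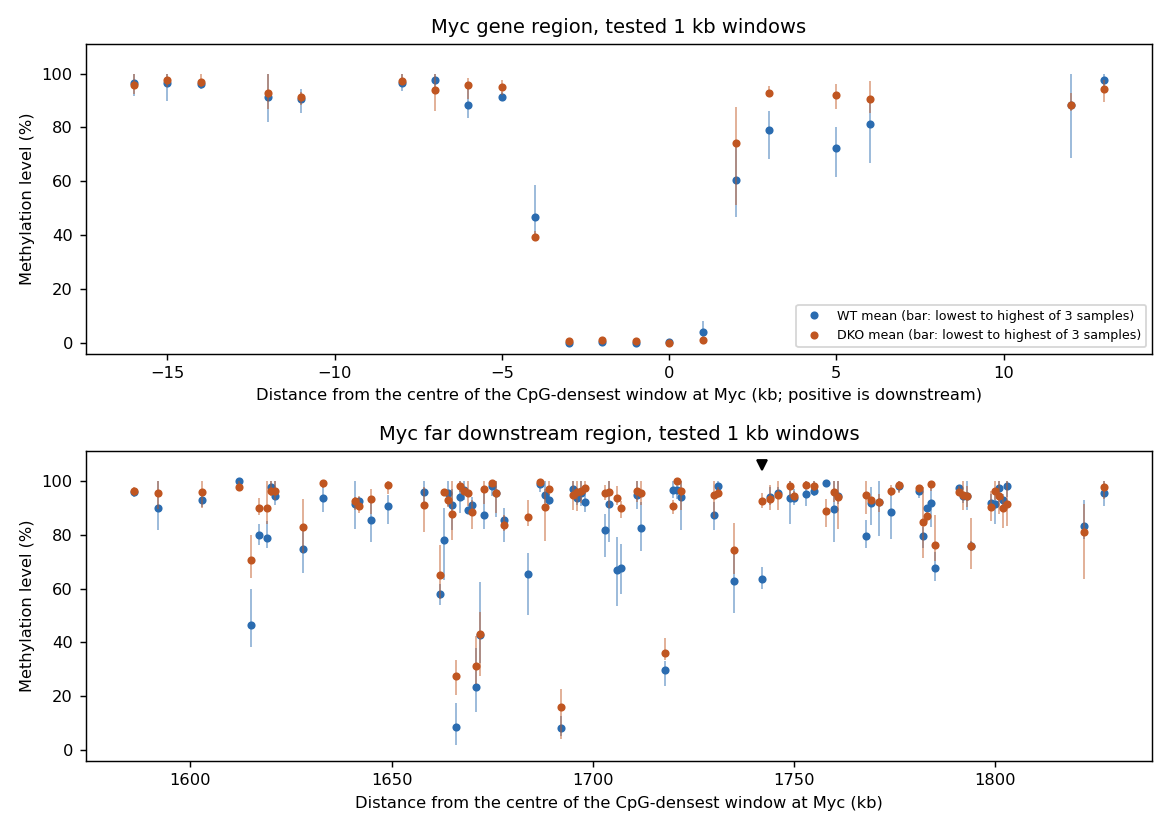
Methylation level (%) of tested 1 kb windows against distance in kb from the CpG-densest window at Myc, for the Myc gene region (top) and the far downstream region (bottom). Points are group means and bars run from the lowest to the highest of 3 samples. The run around 0 is near 0% in both groups, and the triangle marks the single called window, at 1742 kb.

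The far downstream region was higher in DKO as a whole. Over its 1827 CpGs the WT samples had 86.1%, 85.3% and 85.7% and the DKO samples 89.3%, 88.9% and 90.4%, so the groups did not overlap. The difference was 3.84 ± 0.511 points (SE; exact permutation p = 0.1, two-sided, the lowest possible with 3 against 3 samples). Over all autosomal CpGs the levels were 80.8% ± 0.314 in WT and 81.6% ± 0.826 in DKO (mean and SD, n = 3). Among 9600 autosomal bins of 250 kb, the length of the region, the median difference was 0.461 points, and 3.09% of bins differed by at least as much as this region. DKO samples were all higher than the WT samples in 21.5% of the bins. The difference held between 3.17 and 4.15 points in all the settings tried.

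The low-methylated windows of the far downstream region were few, and they differed among themselves. Windows were classed by the mean of the 6 sample levels, as low (below 50%), intermediate (50 to 80%) or high (80% or more). Of the 84 tested windows 5 were low, 9 intermediate and 70 high. The lowest, chr15:63510001-63511000 at 1692 kb, had 7.14%, 12.5% and 5.26% in WT and 4.26%, 22.5% and 21.2% in DKO, with overlapping groups. The window chr15:63484001-63485000 at 1666 kb had 5.88%, 1.82% and 17.6% in WT and 29.3%, 20.4% and 33.3% in DKO. There every DKO sample was above every WT sample, and the group means differed by 19.2 points (adjusted p = 0.321 by the quasi-binomial test, moderated as in limma). Adjacent windows formed a low pair at 1671 and 1672 kb. The first had 14.1%, 18.3% and 37.8% in WT and 24.6%, 42.5% and 26.7% in DKO. The second had 62.5%, 32.4% and 33.9% against 50.5%, 51.2% and 27.5%. Both overlapped between the groups, and the second was level between them, with a difference of 0.154 points. The fifth low window, at 1718 kb, had 32.0%, 23.9% and 33.0% in WT and 41.6%, 33.3% and 33.3% in DKO, apart by less than 1 point at the nearest samples. With equal CpG weights the groups overlapped in it and its difference fell from 6.44 to 1.25 points.

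Summed over the 5 low windows, the level was 25.3%, 20.4% and 27.8% in WT and 33.8%, 38.2% and 27.9% in DKO. The difference was 8.83 ± 3.69 points (SE; exact permutation p = 0.1, n = 3), and DKO replicate 3 lay just above the highest WT sample. It was 5.57 points with equal CpG weights and 13.3 points in 500 bp windows, where 2 windows were low.

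Windows of intermediate level showed a wider gap. The classes use the DKO levels too, so a window low in WT and higher in DKO can count as intermediate. That at 1615 kb did, with group means of 46.6% in WT and 70.7% in DKO. The gaps of the low and intermediate classes therefore depend in part on the classing. Over the 9 intermediate windows far downstream of Myc the WT samples had 67.9%, 66.1% and 61.3% and the DKO samples 78.5%, 76.7% and 81.7%, so the groups were apart. The difference was 13.9 ± 2.46 points (SE; exact permutation p = 0.1, n = 3). In the 70 high windows it was 2.49 ± 0.197 points, from 91.7% ± 0.286 to 94.2% ± 0.186 (SD, n = 3), with the same order of samples.

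The single called window far downstream of Myc was chr15:63560001-63561000, at 1742 kb, with 10 CpGs and 28 to 66 reads. It had 67.9%, 62.7% and 60% in WT and 95.5%, 90.0% and 92.5% in DKO. It rose by 29.1 points, from 63.5% ± 3.99 to 92.7% ± 2.73 (SD, n = 3; adjusted p = 0.0248, quasi-binomial test moderated as in limma). The gap was concentrated in a pair of neighbouring CpGs. At position 63560692, 2 of 15 pooled WT reads and 16 of 17 pooled DKO reads were methylated, and at 63560697 the counts were 0 of 14 and 18 of 19. The next CpG, 63560751, was low in both groups (3 of 13 and 4 of 13 reads). Pooled reads carry no replicate check. Given equal CpG weights, the window had 56.7%, 51.0% and 57.1% in WT and 89.3%, 85.2% and 89.6% in DKO.

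A call here means an adjusted p under 0.05 and at least 10 points between the group means. In the 3 regions together 2 of 205 windows were called higher and 0 lower. Over all tested autosomal windows 0.49% were called higher and 0.00723% lower, 0.497% in either direction. The call at 1742 kb did not survive a change of samples: without each sample in turn its adjusted p was 0.104 to 0.185, while the difference stayed at 27.4 to 31.3 points. Calls over all autosomes fell in the same settings, to 0.00374% to 0.101% of windows called higher. Its loss is therefore not particular to this window. With a limma-type test on log2 ratios the adjusted p was 0.617.

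Other far downstream windows had larger gaps than the low class without passing the test. A pair of adjacent windows, chr15:63524001-63526000 at 1706 and 1707 kb, had 68%, 78.0% and 55.9% in WT and 91.4%, 94.2% and 92.4% in DKO when summed (a span chosen after its values were seen). The first of the pair had an adjusted p of 0.0503 in the quasi-binomial test, moderated as in limma, just outside the limit. The window chr15:63433001-63434000 at 1615 kb had 41.7%, 60% and 38.2% against 68.2%, 64.0% and 80%, and the same order with equal CpG weights. Of the 84 windows of the region, 13 (15.5%) had each DKO sample above each WT sample, where 9.05% of all autosomal windows did. In the opposite direction, 3 windows (3.57%, against 3.75% of all) had every DKO sample below every WT sample, with differences of -10.5, -6.13 and -2.91 points, at 1758, 1720 and 1783 kb. These 3 were highly methylated, none was called, and with equal CpG weights the groups overlapped in each.

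At Myb the called window lay upstream. This window, chr10:20943001-20944000 at -62.7 kb, held 9 CpGs and 30 to 71 reads. The WT samples had 33.3%, 33.3% and 50% and the DKO samples 71.2%, 80.3% and 84.2%. It rose by 39.7 points, from 38.9% ± 9.62 to 78.6% ± 6.68 (SD, n = 3; adjusted p = 0.0271, quasi-binomial test moderated as in limma), the larger of the 2 called differences. Of its 9 CpGs 8 were higher in the pooled DKO reads. At position 20943364, 0 of 11 WT reads and 6 of 18 DKO reads were methylated. At 20943612 the counts were 2 of 12 and 13 of 14, and at 20943618 they were 1 of 10 and 11 of 14. The last CpG of the window, 20943982, was methylated in both groups, with 16 of 16 and 18 of 19 reads. Given equal CpG weights, the window had 31.4%, 26.2% and 21.4% in WT and 61.4%, 79.8% and 87.5% in DKO. Leaving out each sample in turn ended the call, at an adjusted p of 0.0899 to 0.268, and left the difference at 36.8 to 45.2 points. Calls over all autosomes fell as well, as given above. With a limma-type test on log2 ratios its adjusted p was 0.621.

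**Figure D2:**
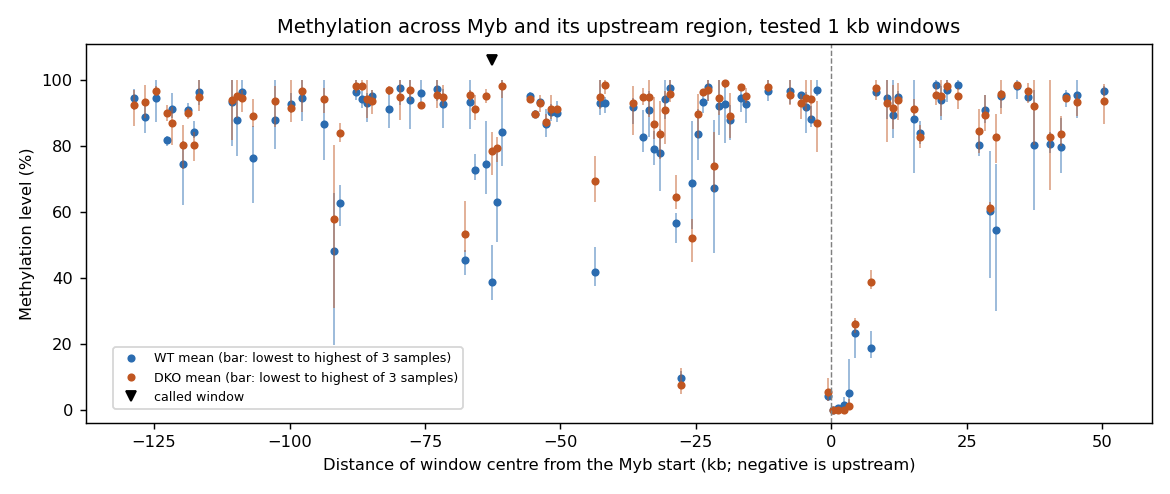
Methylation level (%) of tested 1 kb windows across the Myb region against distance in kb from the Myb start (dashed line), with upstream to the left. Points are group means and bars run from the lowest to the highest of 3 samples. The unmethylated run at the start is shared by both groups, and the triangle marks the called window at -62.7 kb.

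Near the called window, those at -63.7 and -65.7 kb had the same order of groups, and the adjacent window at -61.7 kb had overlapping groups. At -63.7 kb the WT samples had 87.7%, 65.5% and 70.7% and the DKO samples 94.8%, 93.0% and 97.4%. At -65.7 kb they had 77.5%, 71.2% and 69.6% against 90.7%, 95.5% and 88.0%. At -61.7 kb the groups overlapped, with 78.3%, 50.9% and 60% in WT and 80%, 75.3% and 82.8% in DKO. The 5 kb span chr10:20942001-20947000 includes the called window and was set after its values were seen. Its level was 69.4% ± 5.47 in WT and 87.6% ± 1.21 in DKO (mean and SD, n = 3; 55 CpGs, 209 to 377 reads).

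Myb enhancers of erythroid cells are known at about 36, 61, 68 and 81 kb upstream of the gene and at a more distant site, and the windows at these distances were examined with their neighbours. At -35.7 kb a dip in methylation was present but too thinly read to be tested, with 11 to 74 reads. It had 50%, 32.4% and 9.09% in WT and 52.2%, 76.5% and 58.3% in DKO. Both its neighbours were tested and highly methylated. At -34.7 kb the WT samples had 91.0%, 78.1% and 79.2% and the DKO samples 92.6%, 94.3% and 97.6%. The groups were apart there, and the window was not called (adjusted p = 0.324, quasi-binomial test moderated as in limma). At -36.7 kb they overlapped, with a difference of 1.11 points. The called window lies next to the windows examined for 61 kb, of which that at -60.7 kb had 100%, 73.9% and 78.9% in WT and 94.6%, 100% and 100% in DKO. At -67.7 kb a low-methylated window had 46.7%, 40.7% and 48.5% in WT and 63.2%, 49.2% and 47.9% in DKO, with overlapping groups. Around 81 kb every sample was between 85.4% and 100% in the tested windows at -79.7 and -81.7 kb. The window between them, at -80.7 kb, had 19 to 65 reads and was not tested. Its levels were 84.6%, 78.9% and 100% in WT and 80.4%, 80% and 86.2% in DKO. Around the more distant site, the tested windows at -108.7 and -109.7 kb lay between 77.1% and 100%. Beside them, the window at -107.7 kb had 40%, 45.5% and 92.9% in WT and 100%, 71.4% and 92% in DKO. With 5 CpGs and 10 to 25 reads it was too thinly read to be tested, and its groups overlapped.

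The low-methylated windows of the Myb region outside the promoter run were 3 of 100 tested. One of them, at -27.7 kb (chr10:20908001-20909000), was close to unmethylated in both groups. It had 9.18%, 11.7% and 8.33% in WT and 4.88%, 4.83% and 12.8% in DKO. Of its 12 CpGs 11 were below 10% in the pooled reads of both groups, and the other, at position 20908291, was at 78.3% and 80%. A window 7.3 kb into the gene from the start (chr10:20873001-20874000) had 15.8%, 16.4% and 23.7% in WT and 37.2%, 42.3% and 36.7% in DKO. The groups did not overlap and their means differed by 20.1 points (adjusted p = 0.197, quasi-binomial test moderated as in limma), but with equal CpG weights they overlapped and the difference was 10.3 points. The third was the window at -67.7 kb.

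Summed over these 3 windows, the level was 19.9%, 18.8% and 25.8% in WT and 37.6%, 29.2% and 29.0% in DKO, a difference of 10.4 ± 3.58 points (SE; exact permutation p = 0.1, n = 3). This value depended on which CpGs were read. With equal CpG weights it was 4.11 points (exact permutation p = 0.3, n = 3), and over the CpGs that each sample read 3 or more times it was 0.437 points (exact permutation p = 0.9, n = 3).

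Distal and promoter windows of each gene were compared within samples. At Myc the far downstream low windows exceeded the densest window by 24.4 ± 3.61 points in WT and 33.3 ± 5.07 in DKO (mean and SD, n = 3). The gap was thus 8.88 ± 3.60 points wider in DKO (SE; two-sided exact permutation p = 0.1, n = 3 each). The densest Myc window lay at 0% to 0.353% in every sample. This value therefore nearly repeats the 8.83 points of the low windows alone and is no separate result. At Myb the low windows exceeded the promoter by 19.6 ± 3.84 points in WT and 29.3 ± 6.35 in DKO. The gap was 9.68 ± 4.29 points wider in DKO (SE; exact permutation p = 0.1, n = 3). With equal CpG weights these figures were 5.69 points at Myc (exact permutation p = 0.2, n = 3) and 3.34 points at Myb (exact permutation p = 0.5, n = 3). Over CpGs read 3 or more times in each sample, the Myc figure was 12.7 points (exact permutation p = 0.2, n = 3). The Myb figure was then 0.437 points (exact permutation p = 0.9, n = 3).

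**Figure D3:**
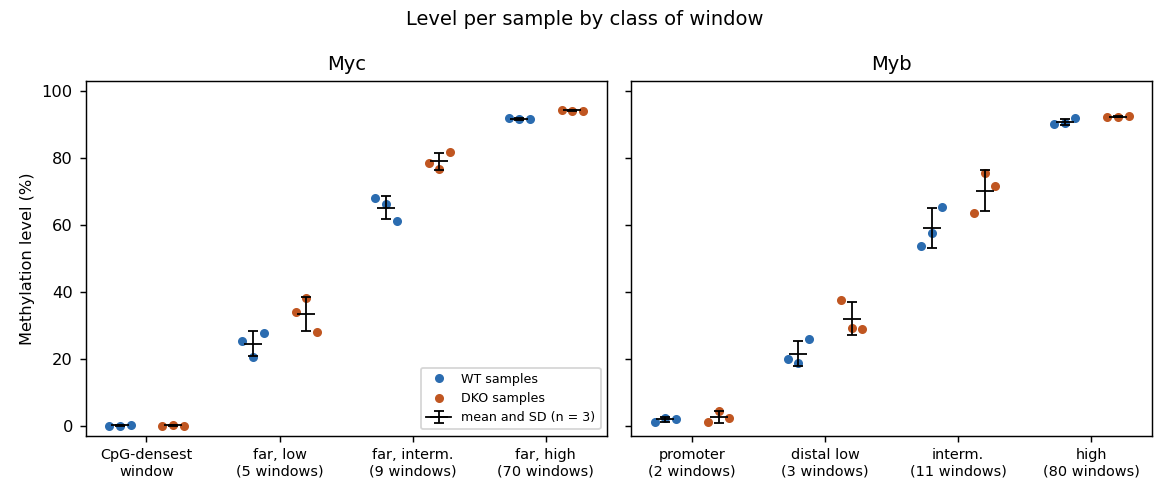
Methylation level (%) of each sample, summed over the windows of a class, for Myc with its far downstream windows (left) and for Myb (right). Points are samples and black marks the mean and SD of 3 samples. Promoter windows are near 0% in every sample, and the 9 intermediate windows far downstream of Myc show no overlap between the groups, with DKO the higher.

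The intermediate windows of the Myb region, 11 in number, had 53.8%, 57.6% and 65.5% in WT and 63.4%, 75.5% and 71.7% in DKO. The groups overlapped, as DKO replicate 1 was below WT replicate 3, and the difference was 11.2 ± 4.94 points (SE; exact permutation p = 0.2, n = 3). Through its DKO levels the called window is in this class, although its WT mean was 38.9%. Among single windows of this class, that at -43.7 kb (chr10:20924001-20925000) had 38.2%, 49.3% and 37.5% in WT and 68%, 77.1% and 63.1% in DKO. Its groups stayed apart with equal CpG weights, and its adjusted p was 0.0774 in that quasi-binomial test with limma-type moderation. At -90.7 kb the samples had 55.8%, 68.2% and 64.6% against 83.3%, 86.9% and 81.4%, also apart. Past the start, at 30.3 kb, the WT samples spread from 30.0% to 74.5% and the DKO samples had 89.8%, 83.3% and 75.0%. With equal CpG weights the groups overlapped there. At -25.7 kb the DKO mean was the lower, with 54.8%, 63.5% and 87.7% in WT and 44.8%, 57.8% and 53.8% in DKO. Of the 100 windows of the region, 11 (11%) had each DKO sample above each WT sample, close to the 9.05% of all autosomal windows. A single one (1%, against 3.75% of all) had every DKO sample below. It lay at -2.7 kb, just upstream of the unmethylated run, with a difference of -9.97 points. Its groups overlapped with equal CpG weights.

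Over all CpGs of the Myb region the level was 79.9%, 81.2% and 81.3% in WT and 82.1%, 83.2% and 82.8% in DKO, a difference of 1.91 ± 0.559 points (SE; exact permutation p = 0.1, n = 3). Of 13319 autosomal bins of 180 kb, 21.7% differed by at least as much. The region holds 8 windows with more than 3 times the median reads per CpG, which carried 33.4% of its reads. Without them, which was tried once the values were known, it was 3.41 points, from 75.2% ± 0.491 to 78.6% ± 0.898 (SD, n = 3). With equal CpG weights it was 3.78 points, and over the CpGs with 3 or more reads from each sample 0.708 points (exact permutation p = 0.7, n = 3). The Myc gene region, of which the unmethylated run is a large part, had 43.1% ± 1.17 and 43.9% ± 2.45 over all CpGs (SD, n = 3; exact permutation p = 0.8). Its 14 high windows had 89.2%, 89.2% and 90.8% in WT and 93.6%, 95.0% and 93.4% in DKO.

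The 205 tested windows were also set beside all autosomal windows of the same level. Each DKO sample exceeded each WT sample in 26 windows (12.7%) and below them in 4 (1.95%), against 9.05% and 3.75% of all tested autosomal windows. Of the 11 windows of the regions with a mean level under 10%, 0 had every DKO sample above and 0 below, where the class over all autosomes had 10.7% and 1.92%. Their median difference was -0.0491 points, against 0.510 over the class. Of the 21 windows at 50 to 80%, 9 had every DKO sample above and 0 below, where the class had 19.1% and 2.16%. Their median difference was 11.7 points, against 5.77 points over the 79655 autosomal windows of that class. Of the 9 windows at 10 to 50%, 3 had every DKO sample above and 0 below, where the class had 19.2% and 2.16%. The median was 7.69 points against 5.16. Of the 164 windows at 80% or more, 14 had every DKO sample above and 4 below, where the class had 7.18% and 4.10%. The median difference was 1.14 points, against 0.606 over the class. An unadjusted p under 0.05 was reached by 29 windows higher in DKO and 3 lower. Over all autosomal windows the shares were 7.32% and 1.95%, and in the 3 regions 14.1% and 1.46%.

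**Figure D4:**
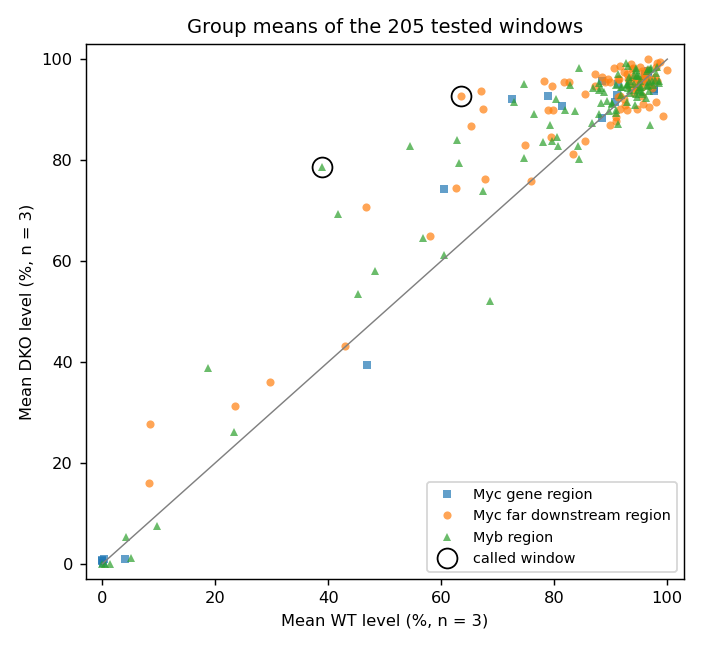
Mean DKO level against mean WT level (%, n = 3 each) for the 205 tested windows of the 3 regions, with the line of equal levels. Windows near 0% lie on the line, most windows of intermediate level lie above it, and the 2 called windows are circled.

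Promoters of the Myc network and the Myb family were measured for comparison, from a list of 20 genes. Max is the partner that Myc needs to bind DNA, the Mxd proteins, Mxi1, Mnt and Mga compete for Max, and Mlx, Mlxip and Mlxipl form a parallel network that senses glucose. Mycn and Mycl are close relatives of Myc, and Mybl2 is a relative of Myb that works in dividing cells. Ep300 and Crebbp are acetyltransferases that Myb recruits, Zbtb17 is a partner through which Myc represses genes, and Hbs1l and Ahi1 flank Myb. Promoters were placed by the spacing of their CpGs, which succeeded for 18 genes of the list with 22 promoters. Myc, Mybl1 and Pvt1 were not placed.

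None of the 22 promoters was called in either direction, where 0.685% of 16798 placed promoters were called higher and 0.0952% lower. Both group means were below 10% in 19 of the 22, and in 58.5% of all placed promoters. The median difference of the list was 0.533 points and that of all placed promoters 0.469. Each DKO sample exceeded each WT sample in 1 of the 22, against 10.4% of all placed promoters, and below them in 0, against 2.43%. The 1 was Mga, with 1.08%, 0.843% and 0% in WT and 4.59%, 2.41% and 2.35% in DKO (smallest adjusted p of its windows 0.383, quasi-binomial test moderated as in limma). An unadjusted p under 0.05 was reached in a window of Mga and of Mxd3, where the DKO mean was the higher, as in 15.9% of all placed promoters. It was also reached in the third Mxi1 promoter, where the DKO mean was lower with a difference of -3.05 points, as in 7.04% of all placed promoters. Its 2 windows include the single window of the second Mxi1 promoter, where the DKO mean was the higher by 13.1 points. Max read 0% in all 6 samples, with 175 to 446 reads.

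Partly methylated promoters in the list belonged to Mxi1 and Mlxipl. Mxi1 has 3 promoters in RefSeq. The second had the highest level in the list, with 19.6%, 9.52% and 32.8% in WT and 42.1%, 22.8% and 36.3% in DKO, and its groups overlapped. The first had 12.4%, 11.6% and 12.3% in WT and 8.83%, 16.2% and 17.8% in DKO. Mlxipl had 7.62%, 15.7% and 15.3% against 10.9%, 5.19% and 12.3% at the first of its promoters, where the DKO mean was the lower. The promoters closest to the densest Myc window in their 6 levels were Mnt, Max and Crebbp, with mean absolute differences of 0.0723, 0.0933 and 0.0942 points. Those closest to the Myb promoter were Mlxip, Ep300 and Ahi1, at 1.06, 1.08 and 1.35 points. These are small differences between levels that are all near 0, over 6 samples.

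**Figure D5:**
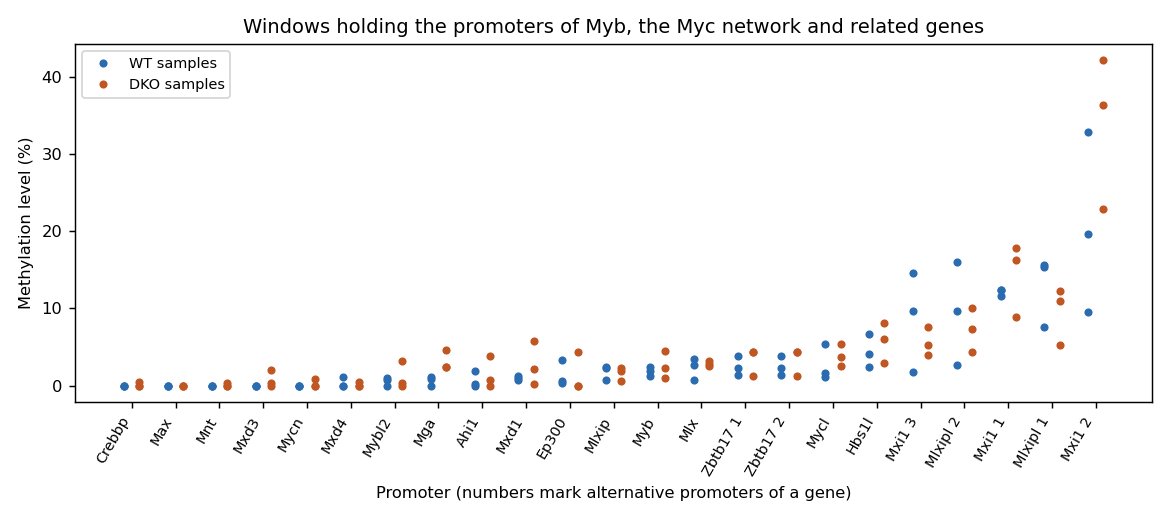
Methylation level (%) of each WT and DKO sample in the 1 kb windows that hold the promoters of Myb and of the listed genes, ordered by the WT mean. Most samples lie below 10%, and the second Mxi1 promoter has the highest levels in both groups.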

How the data were processed

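The authors deposited counts, per the file headers: methylated reads and total reads for every CpG, in 3 WT and 3 DKO samples. Per the submitters' processing notes BSMAP 2.74 and mm9 were used. Read filters, duplicate removal and trimming were not given in the sources used here. The table listed 20451903 CpGs, with 0 duplicates and 0 columns of other samples. Total depth was 70815948 to 72747248 reads at CpGs in WT and 83560585 to 111763872 in DKO.

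A level is methylated over all reads, in percent, summed over CpGs. A read counts once at each CpG it covers. Windows of 1 kb with at least 3 CpGs and 20 reads per sample (median 52) were tested on all autosomes with a quasi-binomial model. The dispersion came from Pearson's statistic and was moderated as in limma's squeezeVar (prior degrees of freedom 23.7), with a floor of 1. Adjusted p-values follow Benjamini and Hochberg. Single levels were compared by two-sided exact permutation tests. Alternatives included a limma-type moderated test on log2 ratios of methylated to unmethylated reads (0.5 added to each), written in Python like the main test. The code used numpy 2.4.6, pandas 2.3.3 and scipy 1.17.1, and the window test was tested on simulated data.

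RefSeq promoter sequences with at least 6 CpGs were placed where at least 80% of their CpGs matched the table's CpG spacing, at 1 best place on their chromosome. Of 31396 autosomal sequences 17846 had enough CpGs and 17084 were placed, and 99.98% of neighbouring pairs were in reference order. No mm9 annotation was used here. Named windows were the promoter windows, all distal low windows, all called windows and, in each region and direction, the 3 largest differences among windows whose groups did not overlap. Windows at the known Myb enhancer distances were added. Windows beside these were named after their values were seen. The members and lists were chosen with earlier results of these data known.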

Additional observations from a re-analysis of the deposited data

How the results depend on the processing

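Settings with equal CpG weights for single windows, without high-copy windows and with the dispersion from the residual deviance were added after the data were seen. The 2 windows called higher became 0 without each single sample, with the replicate block, with minima of 10 and of 40 reads, in 500 bp windows, with a limma-type test on log2 ratios and with the deviance. Calls fell over all autosomes too, from 0.49% of windows called higher. The share was 0.00374% to 0.101% without each single sample, 0.0221% and 0.112% with the minima of 10 and 40 reads, and 0.280% with the deviance. In 500 bp windows 0 of 439691 were called. Fisher's exact test on pooled reads, which ignores the spread between samples, gave 24 higher (11.7%) and 1 lower (0.488%), where 5.56% and 0.908% of all autosomal windows were called. It called 2 of the 22 promoters of the list and 7.73% of all placed promoters. At an unadjusted p of 0.05, the limma-type test had 22 of the 205 windows higher and 2 lower. Over all 774732 tested autosomal windows it had 40094 higher and 15048 lower. The block had 17 and 4 in the 3 regions, and its count over all windows was not taken. Over all autosomes the block and the limma-type test called 0 windows, against 3798 higher and 56 lower. Same-numbered samples of the groups did not deviate together (correlations of 0.00332 to 0.00359 over windows, each the highest for its sample), so the numbers were not taken as pairs. As a block in the level comparisons they left each difference as it was, and the smallest sign-flip p with 3 pairs is 0.25.

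Differences of the levels kept their sign in all settings run except at 4 elements. Leaving out each sample in turn gave -0.118 to 0.0687 points in the Myc densest window, -0.198 to 1.54 at the Myb promoter, and -0.508 to 1.90 in the Myc gene region over all CpGs. The single intermediate window of the Myc gene region, at 13.8 points, was -8.08 with equal CpG weights. Among the named windows, that at 1672 kb took -5.12 to 9.95 points when samples were left out in turn, and that at -0.7 kb, in the Myb promoter, -1.01 to 2.54. That at -27.7 kb turned from -2.24 to 1.14 points with equal CpG weights. The Myb low windows fell from 10.4 to 4.76 points in 500 bp windows and to 6.59 when classed by the DKO mean or with a limit of 30%. With a limit of 60%, which took in 6 windows, the difference was 13.8 points. Classed by WT replicate 1 and measured in the other samples, 8 windows were low and differed by 8.27 points. Depth limits single windows: a called window held 28 to 71 reads per sample.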

Other observations

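The window at -91.7 kb from the Myb start (chr10:20972001-20973000, 15 CpGs, 32 to 126 reads) varied widely within both groups. The WT samples had 59.5%, 19.6% and 65.6% and the DKO samples 31.0%, 80.2% and 62.9%, so each group had both a low and a high sample. Its neighbour at -90.7 kb had SDs of 6.39 points in WT and 2.79 in DKO.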
